A study of Mus musculus with 32 samples.

Results

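A list of 37 genes of blood and lymphatic vessels was followed through 32 mouse mesothelioma tumors. The genes were found by symbol in the gene count table. Of the 37, 32 had a row among 39676 genes, and Cldn5, Sox7, Pgf, Angpt1 and Pdgfb are not analysed here. By role, the 32 comprised 10 surface and junction genes (Pecam1, Cdh5, Esam, Emcn, Eng, Robo4, Egfl7, Plvap, Vwf, Nos3), 5 growth factor receptors (Kdr, Flt1, Tek, Tie1, Aplnr) and 3 transcription factors (Erg, Sox17, Sox18). The others were 5 ligands (Vegfa, Vegfb, Vegfc, Angpt2, Apln), 5 arterial and tip cell genes (Dll4, Notch4, Gja4, Gja5, Esm1), the venous gene Ackr1, and 3 lymphatic genes (Prox1, Flt4, Pdpn).

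The study asked how the pleural cavity, as opposed to the subcutaneous space, changes mesothelioma. The murine mesothelioma line AB1 was inoculated at 500000 cells into BALB/c mice, and AE17 at 1000000 cells into C57BL/6 mice, either intrapleurally (IPL) or subcutaneously (SC). All mice were female and aged 8 to 10 weeks, and no drug group is included. For IPL inoculation the mice were under isoflurane and received a larger volume of saline, whereas SC mice were shaved on the flank, so that site and procedure cannot be told apart. The tumors were taken on day 10, from 8 mice for each model at each site. The lungs and surrounding tissue were removed before polyA RNA of the whole tumor was sequenced, so that the counts mix cancer cells with host cells. Cell line, mouse strain and cell number differ together between the models. In whole tumors, fewer endothelial cells and less RNA per endothelial cell cannot be told apart.

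Blood vessels are lined by endothelial cells that adhere through the VE-cadherin encoded by Cdh5 and the adhesion molecule encoded by Pecam1. VEGF-A, made by many tumor and stromal cells, signals for vessel growth through the receptor encoded by Kdr, while the Flt1 receptor binds the same ligand tightly and can act as a decoy. Lymphatic endothelium is specified by the transcription factor PROX1 and grows in response to VEGF-C, the ligand of the Flt4 receptor, and ETS and SOX family transcription factors such as ERG and SOX18 act in endothelial genes.

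Total counts lay between 15432258 and 20649645 per mouse, so that 3 counts, taken as the detection limit, corresponded to between 0.139 and 0.19 CPM (counts scaled to library size with TMM factors). Pecam1 was found in every tumor, at 41.4 CPM or more. Libraries were spread over 3 lanes, and lane follows the groups: lane 3 carried every AB1 IPL library and 2 from AB1 SC, lane 1 every AE17 SC library and 3 from AE17 IPL, and lane 2 the remaining ones. No lane held both models at 1 site, so that lane and model cannot be told apart. Lung epithelial markers, of which 7 had a row, summed to between 1.24 and 12 CPM in the 32 mice, led by Ager. Of the 7, 5 were at 3 counts or fewer in every AB1 SC tumor, and 2 in every AB1 IPL tumor. In AE17 these numbers were 6 in SC and 3 in IPL tumors. Sftpa1 and Sftpb, at no more than 3 counts in any SC tumor, reached 6 and 4 counts in AB1 IPL tumors. In AE17 IPL tumors they reached 13 and 18 counts.

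Promoter windows are shown for 3 members whose values are described next: Tie1 and Robo4, which followed Cdh5 most closely from tumor to tumor, and Flt4, which was higher in IPL tumors of both models. Each runs from 250 bases before to 50 bases after a RefSeq start on GRCm38.p6, read 5′ to 3′ on the gene's strand, and capitals mark the string CAGGAA, an ETS-type string, or its reverse complement.

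Tie1, chr4:118489800-118490099, minus strand: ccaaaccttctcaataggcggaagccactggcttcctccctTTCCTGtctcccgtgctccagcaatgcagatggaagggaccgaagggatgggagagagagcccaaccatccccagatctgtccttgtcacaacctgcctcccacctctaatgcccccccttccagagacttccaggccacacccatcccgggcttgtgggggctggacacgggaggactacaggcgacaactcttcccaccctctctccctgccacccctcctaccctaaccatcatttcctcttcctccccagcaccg

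Robo4, chr9:37401722-37402021, plus strand: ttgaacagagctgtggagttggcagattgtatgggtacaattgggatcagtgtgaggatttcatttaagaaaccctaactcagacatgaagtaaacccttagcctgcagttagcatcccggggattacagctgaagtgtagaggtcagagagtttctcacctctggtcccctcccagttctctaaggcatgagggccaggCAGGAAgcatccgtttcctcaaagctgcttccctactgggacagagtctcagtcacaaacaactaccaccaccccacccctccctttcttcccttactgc

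Flt4, chr11:49609429-49609728, plus strand: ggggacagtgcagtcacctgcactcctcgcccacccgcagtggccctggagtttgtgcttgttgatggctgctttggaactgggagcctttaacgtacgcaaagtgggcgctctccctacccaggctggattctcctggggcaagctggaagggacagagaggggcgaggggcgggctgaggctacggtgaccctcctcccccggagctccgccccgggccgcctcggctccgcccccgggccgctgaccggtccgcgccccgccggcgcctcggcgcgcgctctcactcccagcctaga

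Tie1 holds the string in reverse orientation, Robo4 in forward orientation, and the Flt4 window holds none. In all, 22 members had 28 RefSeq windows, and 15 of the 28, from 14 members, held CAGGAA on either strand, against 30.6% of 32851 windows of all genes. The longer string ACAGGAA, which contains it, was in 8 of the 28 and in 8.67% of all windows, and CCGGAA was in 1, that of Kdr, and in 14.9%. SOX-type strings AACAAT and ACAATG were in 3 and 2 of the 28, and in 10.7% and 12.6% of all windows. Of 9 strings searched on both strands, some contained in others, the remaining 4 were AGGAAG (12 of the 28, and 35.4% of all windows), GGAAG (21 and 71.4%), CCGGAAGT (0 and 3.89%) and AAACA (17 and 50.5%). The strings and the genes shown were chosen after the matches were seen, and a match does not show that a factor binds there.

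Per kilobase of exon, levels of the members differed widely. In AB1 SC tumors the median level was 46.7 CPM per kb for Pdpn, 22.3 for Vegfa, 21.2 for Vegfb, 19.3 for Plvap, 11.5 for Apln, 9.87 for Pecam1, 9.60 for Eng and 8.08 for Cdh5. In AE17 SC tumors Pdpn was again the most abundant at 88.7 CPM per kb, followed by Vegfa at 23.7 and Plvap at 19.9, and Vegfb reached 11.4. Prox1 was the least abundant member at both sites of AB1 and in AE17 SC tumors, with medians of 0.00698, 0.0572 and 0.156 CPM per kb in AB1 SC, AB1 IPL and AE17 SC tumors. In AE17 IPL tumors the least abundant was Sox17, at 0.379. Pdpn, Vegfa and Vegfb, which cells other than endothelium also make, lay above Cdh5 on this scale in every group. The surface genes Plvap and Eng did so too.

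To find which vessel genes differed between the sites, each model's IPL tumors were set against its SC tumors with the quasi-likelihood test of edgeR, fitted to all genes, at a Benjamini-Hochberg adjusted p of 0.05. In the AB1 model 9 of 31 members tested passed, against 23% of 14645 genes: Cdh5, Eng, Robo4, Egfl7, Vwf, Tek, Aplnr and Flt4 were higher in IPL tumors and Flt1 was lower. In one direction, 8 members were higher, against 12.3% of all genes. The median log2 change of the 31 was 0.36, against -0.00 over all genes, and 25 of the 31 had a change above 0. No member had groups that did not overlap, against 2.5% of genes with every IPL tumor above every SC tumor.

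**Figure D1:**
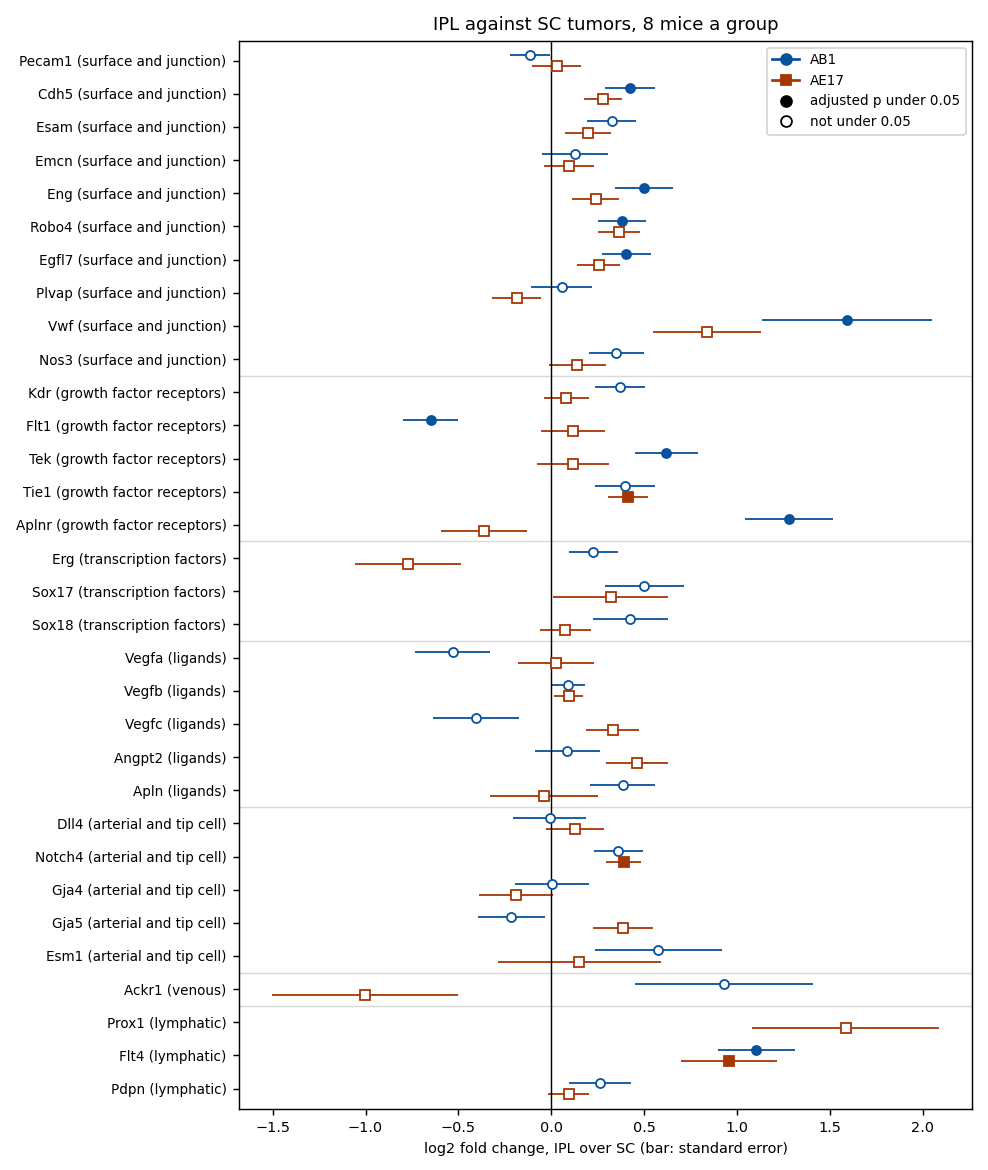
Log2 fold change of each member, IPL over SC, in AB1 (circles) and AE17 (squares), with bars of 1 standard error and filled symbols for an edgeR adjusted p under 0.05. In AB1, 9 of 31 members pass, Vwf, Aplnr and Flt4 with the largest rises of these and Flt1 with a fall, and in AE17 3 of 32 pass, Tie1, Notch4 and Flt4. Prox1 was removed in AB1 by the filter on low counts.

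Among the surface genes, VE-cadherin mRNA was higher in AB1 IPL tumors. Cdh5 (GRCm38 chromosome 8, 104101625 to 104144511, plus strand) ran from 26.8 to 36.9 CPM with a median of 34 in SC tumors, and from 29.3 to 60.8 CPM with a median of 49 in IPL tumors. Of the 8 IPL tumors, 6 lay above every SC tumor, while replicates 5 and 7 lay within the SC range. Its log2 change was 0.42 ± 0.13 (SE, n = 8 and 8; edgeR adjusted p = 0.0284), and the call was lost without IPL replicate 1, 4 or 6 or SC replicate 4 or 5, with adjusted p of up to 0.0642.

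Eng, the TGF-beta co-receptor endoglin, rose as well. Its values were 33.3, 38.8 and 47 CPM (lowest, median and highest) in SC tumors and 33.7, 53.3 and 83.1 CPM in IPL tumors, with 6 of 8 IPL tumors above the SC range. The log2 change was 0.50 ± 0.16 (edgeR adjusted p = 0.0269), lost without IPL replicate 4 (0.0667) or SC replicate 7 (0.0545).

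Robo4, a guidance receptor that stabilizes vessels, and Egfl7, a secreted matrix protein of endothelium, rose by similar amounts. Robo4 was at 6.17, 7.70 and 8.94 CPM in SC and 7.07, 9.65 and 12.8 CPM in IPL tumors, with a log2 change of 0.38 ± 0.13 (edgeR adjusted p = 0.0428). Egfl7 was at 11.2, 14.4 and 17 CPM in SC and 12, 21.3 and 24.4 CPM in IPL tumors, with a log2 change of 0.41 ± 0.13 (edgeR adjusted p = 0.0367). The groups overlapped for both. Each call was lost in 10 of the 16 fits that left out 1 mouse, for both without IPL replicate 1, 4, 6 or 8 or SC replicate 4, 5, 7 or 8, for Robo4 also without SC replicate 2 or 3 and for Egfl7 also without SC replicate 1 or 6, with adjusted p of up to 0.0978 and 0.0848.

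Vwf, the von Willebrand factor of endothelium and platelets, had the largest rise of the members that edgeR called in AB1 but also a wide spread. It was at 1.33, 4.40 and 7.86 CPM in AB1 SC and at 2.77, 8.84 and 37 CPM in AB1 IPL tumors. The high values came from IPL replicates 1 to 4, at 11, 37, 18.2 and 21.2 CPM, and the other 4 IPL tumors lay within the SC range. Its log2 change was 1.59 ± 0.46 (edgeR adjusted p = 0.0176), kept whichever mouse was left out. Platelet markers with a row summed to 76.6 and 47.6 CPM in IPL replicates 3 and 4, the highest of the AB1 mice, and to 29.1 CPM in replicate 2, where Vwf was highest, within the range of 20.6 to 35.2 CPM of the SC tumors. Adipocyte markers summed to 100, 104, 17 and 20.5 CPM in IPL replicates 1 to 4, where Vwf was high, against at most 4.60 CPM in the other 4 IPL and 12.6 CPM in the SC tumors. The part of either in the Vwf result was not tested.

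Pecam1, Plvap and Emcn gave no call. Pecam1 was at 55.8, 61.4 and 78.4 CPM in AB1 SC and 44.2, 62.5 and 74.5 CPM in AB1 IPL tumors, a log2 change of -0.11 ± 0.11 with a 95% interval from -0.32 to 0.10 (1.96 SE either side). The corresponding intervals were -0.27 to 0.38 for Plvap, the diaphragm protein of fenestrated capillaries, and -0.22 to 0.47 for Emcn, a sialomucin of capillaries and veins. Esam and Nos3 had log2 changes of 0.32 ± 0.13 and 0.35 ± 0.15 (edgeR adjusted p = 0.0825 and 0.0968).

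The receptors divided. Aplnr, the receptor of apelin (chromosome 2, 85136225 to 85139923, plus strand), was at 4.83, 8.63 and 11.7 CPM in AB1 SC and at 11, 19.1 and 35.7 CPM in AB1 IPL tumors. All IPL tumors but replicate 5 exceeded every SC tumor, and the log2 change was 1.28 ± 0.24 (edgeR adjusted p = 0.000903), kept without any 1 mouse. Tek, the angiopoietin receptor, was at 3.25, 4.19 and 5.30 CPM in SC and 4.26, 6.53 and 10.7 CPM in IPL tumors, with 5 of 8 IPL tumors above the SC range and a log2 change of 0.62 ± 0.17 (edgeR adjusted p = 0.0124).

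Flt1 went the other way. It was at 23.8, 35.3 and 47.3 CPM in AB1 SC and 16.7, 22 and 30.2 CPM in AB1 IPL tumors, where every value lay below the SC median. The log2 change was -0.65 ± 0.15 (edgeR adjusted p = 0.0039), kept without any 1 mouse. Kdr and Tie1 had changes of 0.37 ± 0.13 and 0.40 ± 0.16 with edgeR adjusted p of 0.0533 and 0.0846. For Kdr the values were 11.1, 19 and 23.6 CPM in SC and 19, 24.1 and 29.7 CPM in IPL tumors, and 5 of the 8 IPL tumors lay above the SC range.

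No transcription factor, ligand, arterial or venous member passed in AB1. Erg changed by 0.23 ± 0.13, Sox17 by 0.50 ± 0.21 and Sox18 by 0.43 ± 0.20 on the log2 scale, with edgeR adjusted p of 0.235, 0.102 and 0.139. Vegfa was at 80.2, 95.5 and 114 CPM in SC and at 42.8, 60.7 and 139 CPM in IPL tumors. Of the 8 IPL tumors, 6 lay below every SC tumor, whereas IPL replicate 8 was the highest of all 16 at 139 CPM. The log2 change was -0.53 ± 0.20 (edgeR adjusted p = 0.0651), and without that mouse the adjusted p was 0.000888. Notch4, a Notch receptor of endothelium, was at 17, 18.2 and 24.1 CPM in SC and 15.8, 26.1 and 32 CPM in IPL tumors, a log2 change of 0.36 ± 0.13 (edgeR adjusted p = 0.0566).

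The count of calls in AB1 depended on which libraries were used. Left out 1 at a time, the mice gave between 5 and 13 calls, against 19.4% to 24.7% of all genes, the lowest without IPL replicate 4 (23.7%). Within lane 3, with 8 IPL and 2 SC tumors, all 9 called members kept their sign, with log2 changes between 0.20 and 1.62 in size, but edgeR called 0 of 32 members, against 1.06% of all genes, with Flt1, Aplnr and Gja5, 3 members, at an unadjusted p under 0.05. With lane as a covariate edgeR again called 0 of 31, against 2.64% of all genes, with 4 at an unadjusted p under 0.05 (Flt4 in addition). DESeq2 was not run on these subsets and called 12 over all 16 mice, against 20.7% of all genes. For the lane fits, the share of all genes at an unadjusted p under 0.05 is not given here.

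RNA of other tissues also differed between the AB1 groups. The 6 skeletal muscle markers summed to between 52.2 and 411 CPM in SC and between 102 and 3971 CPM in IPL tumors, led by Acta1. Red cell markers summed to between 23.3 and 66.3 CPM in SC and between 53.3 and 3447 CPM in IPL tumors, and pericyte and smooth muscle markers to between 153 and 205 and between 192 and 282 CPM. Cardiac muscle markers summed to between 5.73 and 10.4 CPM in SC and between 5.90 and 66 CPM in IPL tumors, 7 of 8 above the SC range, and adipocyte markers to between 0.181 and 12.6 and between 1.69 and 104 CPM. Leukocyte markers were lower, with sums between 578 and 788 CPM in IPL against 693 and 1068 CPM in SC tumors. Without the 4 IPL mice with more than 2000 CPM of muscle markers (replicates 1, 3, 4 and 7), a choice made after the data were seen, 3 members passed, against 13.5% of all genes: Aplnr and Flt4, as before, and Esm1. That fit held fewer IPL mice, so that fewer calls there do not show smaller changes. The part of these tissues in the vessel gene result was otherwise not tested.

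**Figure D2:**
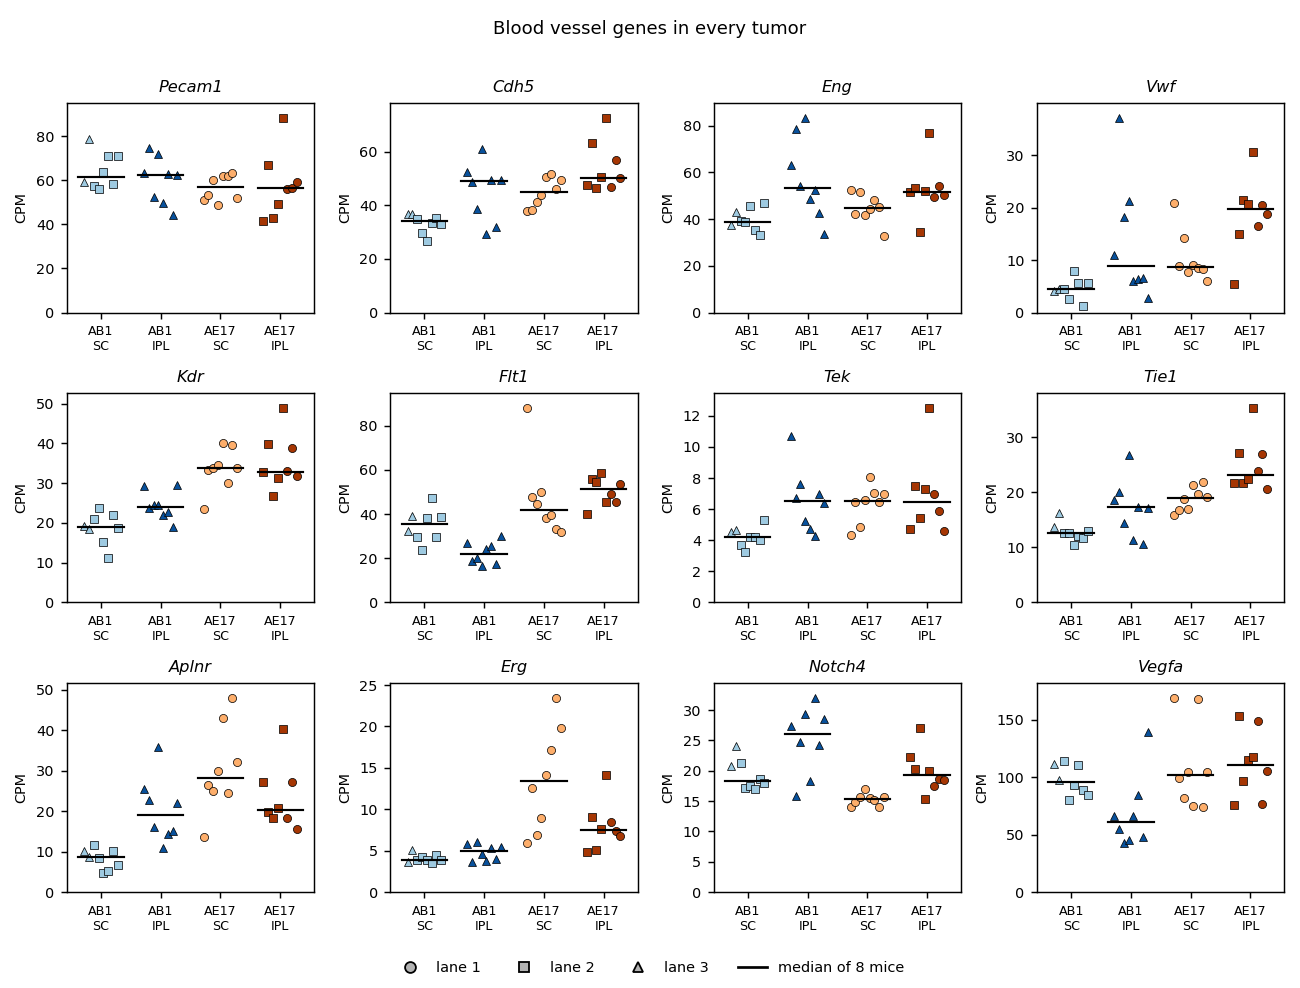
CPM of 12 members in each of the 32 tumors, by group, with a bar at the median of 8 mice and the symbol giving the sequencing lane. In AB1, 6 of 8 IPL tumors lie above every SC tumor for Cdh5, while Pecam1 overlaps and Flt1 is lower. In AE17, IPL replicate 5 is the highest mouse of its group for Pecam1, Cdh5, Eng, Vwf, Kdr, Tek, Tie1, Aplnr and Erg.

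In the AE17 model 3 of 32 members tested passed, against 5.73% of 14668 genes: Tie1, Notch4 and Flt4, all higher in IPL tumors. In that direction the share over all genes was 2.6%. The median log2 change of the 32 was 0.13, against 0.00 over all genes, with 26 of 32 above 0. No member had groups that did not overlap, against 0.273% of genes with every IPL tumor above every SC tumor.

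Tie1, an orphan receptor that works with Tek, was at 15.8, 19 and 21.9 CPM in AE17 SC and 20.6, 23.1 and 35.2 CPM in AE17 IPL tumors. Every IPL tumor lay above the SC median and 5 of 8 above the SC range, with a log2 change of 0.41 ± 0.11 (edgeR adjusted p = 0.0368). The call was lost in 9 of 16 fits that left out 1 mouse (IPL replicate 2, 4, 6 or 7, or SC replicate 2, 4, 5, 6 or 8), with adjusted p of up to 0.0768.

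Notch4 was at 14, 15.3 and 16.9 CPM in SC and 15.4, 19.4 and 27 CPM in IPL tumors. All IPL tumors but replicate 4 lay above every SC tumor, and the log2 change was 0.39 ± 0.09 (edgeR adjusted p = 0.0269), lost without SC replicate 7 (0.053). The AB1 change given above was of similar size without passing, and the difference of the site effects was -0.01 with a 95% interval from -0.33 to 0.31.

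Most of the pan-endothelial genes that rose in AB1 had smaller positive changes in AE17 that did not pass. Cdh5 was at 37.9, 44.8 and 51.7 CPM in SC and 46.5, 50.3 and 72.4 CPM in IPL tumors, a log2 change of 0.28 ± 0.10 (edgeR adjusted p = 0.106). Robo4 changed by 0.36 ± 0.11, Vwf by 0.84 ± 0.29, Egfl7 by 0.25 ± 0.12 and Eng by 0.24 ± 0.13, with edgeR adjusted p of 0.0659, 0.0905, 0.189 and 0.243. Pecam1 was at 48.9, 56.7 and 63.2 CPM in SC and 41.4, 56.4 and 88 CPM in IPL tumors, with a 95% interval of its log2 change from -0.23 to 0.29. Kdr and Vegfa were also close between the sites, at 0.08 ± 0.12 and 0.03 ± 0.20.

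Erg, which encodes an ETS factor, spread over a wide range in AE17 SC tumors. It was at 5.88, 13.4 and 23.4 CPM in SC and 4.87, 7.49 and 14.1 CPM in IPL tumors, a log2 change of -0.77 ± 0.28 (edgeR adjusted p = 0.106). It passed without IPL replicate 5 (-0.95, edgeR adjusted p = 0.0441) or SC replicate 1 (-0.89, 0.038). In AB1 tumors it stayed between 3.56 and 6.06 CPM at either site. Angpt2, the angiopoietin that antagonizes Tek signaling in many settings, changed by 0.46 ± 0.17 (edgeR adjusted p = 0.0998), with 5 of 8 AE17 IPL tumors above the SC range, and passed without either of the same mice (adjusted p = 0.0314 and 0.0383).

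AE17 IPL replicate 5 stood apart. It was the highest of its group for 18 of the 32 members, among them Pecam1 at 88, Cdh5 at 72.4 and Tie1 at 35.2 CPM, and it also held the most adipocyte and cardiac muscle marker RNA of the 32 mice, 316 and 165 CPM. Without it, 6 members passed in AE17, 4 higher and 2 lower, against 8.56% of all genes: Angpt2 was gained as higher, and Plvap (-0.33, edgeR adjusted p = 0.0326) and Erg as lower. Without SC replicate 1 the count was 7, 6 higher and 1 lower, against 14% of all genes, with Vwf, Vegfc, Angpt2 and Erg gained. It was 1 without any of IPL replicates 2, 4, 6 or 7 or SC replicates 2, 4, 6 or 8, against 2.14% to 5.9% of all genes. Within lane 1, with 3 IPL and 8 SC tumors, the 3 called members kept their sign, with log2 changes between 0.25 and 0.81, and edgeR called 0 of 32, against 0.0911% of all genes, 6 of them with an unadjusted p under 0.05 (Plvap, Vwf, Tie1, Angpt2, Notch4 and Flt4). With lane as a covariate it called 0 of 32, against 0.00682% of all genes, 3 with an unadjusted p under 0.05. DESeq2 called 6 over all 16 mice, against 9.87%. For the lane fits in AE17, the share of all genes at an unadjusted p under 0.05 is not given here. The 6 muscle markers summed to between 44.5 and 1116 CPM in SC and between 56.9 and 722 CPM in IPL tumors.

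RNA of other tissues was also summed by marker list in AE17, with no test. Mesothelial markers summed to between 0.0606 and 0.465 CPM in SC and between 0 and 13.6 CPM in IPL tumors, red cell markers to between 29.5 and 222 and between 72.5 and 703 CPM, and cardiac muscle markers to between 4.09 and 9.02 and between 4.63 and 165 CPM. Pericyte and smooth muscle markers summed to between 212 and 453 CPM in IPL and between 287 and 658 CPM in SC tumors. The part of these tissues in the AE17 result was not tested.

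Flt4, which encodes a receptor of VEGF-C (chromosome 11, 49609263 to 49652739, plus strand), was the only member called in both models. It was at 1.70, 2.46 and 3.68 CPM in AB1 SC and 3.08, 6.16 and 7.36 CPM in AB1 IPL tumors, with all IPL tumors but replicate 2 above every SC tumor. The log2 change was 1.10 ± 0.21 (edgeR adjusted p = 0.00106), kept without any 1 mouse. In AE17 it was at 5.00, 7.52 and 12.5 CPM in SC and 5.18, 17.4 and 23.8 CPM in IPL tumors, with 6 of 8 IPL tumors above the SC range and a log2 change of 0.96 ± 0.26 (edgeR adjusted p = 0.0406).

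That AE17 call was lost in 9 of 16 fits that left out 1 mouse (IPL replicate 2, 3, 4, 6 or 7, or SC replicate 2, 4, 6 or 8), with adjusted p of up to 0.0796. Within 1 lane the Flt4 changes were 0.66 in AB1 and 0.81 in AE17 (edgeR adjusted p = 0.466 and 0.334, unadjusted p = 0.0757 and 0.0458). The site effects of the models differed by 0.17 ± 0.33, with a 95% interval from -0.49 to 0.82.

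Prox1 (chromosome 1, 190118035 to 190170714, minus strand) was near the detection limit in AB1, with 3 counts or fewer in 6 of 8 SC and 3 of 8 IPL tumors. Its values were 0, 0.0586 and 0.252 CPM in AB1 SC and 0.0522, 0.48 and 1.32 CPM in AB1 IPL tumors, and the filter on low counts removed it from the AB1 edgeR test. Without that filter edgeR gave a log2 change of 2.59 ± 0.69 (adjusted p = 0.0162), and within lane 3, where 8 IPL and 2 SC tumors were left, 1.97 ± 1.25 (edgeR adjusted p = 0.577). DESeq2 gave 2.66 (adjusted p = 0.00469). In AE17 it was at 0.349, 1.31 and 2.34 CPM in SC and 0.0569, 4.80 and 5.45 CPM in IPL tumors, with 6 of 8 IPL tumors above the SC range. The log2 change was 1.59 ± 0.50 (edgeR adjusted p = 0.0697), and 0.0135 without IPL replicate 8, the mouse with the least Prox1. Podoplanin, which lymphatic endothelium, mesothelium and fibroblasts make, did not pass in either model: Pdpn changed by 0.26 ± 0.17 in AB1 and by 0.09 ± 0.11 in AE17.

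Of 5 other lymphatic genes, 1 of 4 tested passed in AB1 and 1 of 5 in AE17, both higher in IPL tumors, against 12.3% and 2.6% of all genes higher. Ccl21a, a chemokine of lymphatic vessels with near-identical gene copies that can share reads, was at 0, 0.374 and 1.30 CPM in AB1 SC and 0.261, 6.43 and 23.2 CPM in AB1 IPL tumors, a log2 change of 3.89 ± 0.86 (edgeR adjusted p = 0.00339). In AE17 it was at 0.756, 12.9 and 46.2 CPM in SC and 0.512, 80.6 and 120 CPM in IPL tumors (1.96 ± 0.71, adjusted p = 0.104). Reln, a secreted glycoprotein that lymphatic endothelium also makes, passed in AE17, at 0.116, 1.16 and 2.21 CPM in SC and 0.74, 6.25 and 8.34 CPM in IPL tumors (2.00 ± 0.48, adjusted p = 0.0263). Lyve1 gave no call in either model.

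Values of single mice are added for 2 AE17 tumors, chosen after the values were seen. AE17 IPL replicate 8 had the least Prox1, Flt4, Ccl21a and Reln of its group (0.0569, 5.18, 0.512 and 0.74 CPM), while its Cdh5, at 50.2 CPM, was close to the group median of 50.3 CPM. AE17 SC replicate 6 likewise had the least of all 4 in its group, with Cdh5 the highest of the group at 51.7 CPM. Lyve1 was an exception. It was the highest of the group in AE17 SC replicate 6, at 18 CPM, and among AE17 IPL tumors it was at 4.32 CPM in replicate 8 and lowest in replicate 1, at 1.19 CPM. The AB1 IPL tumor with the least Prox1, Ccl21a and Reln, replicate 8, had 6.37 CPM of Flt4, which was lowest in replicate 2, at 3.08 CPM.

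**Figure D3:**
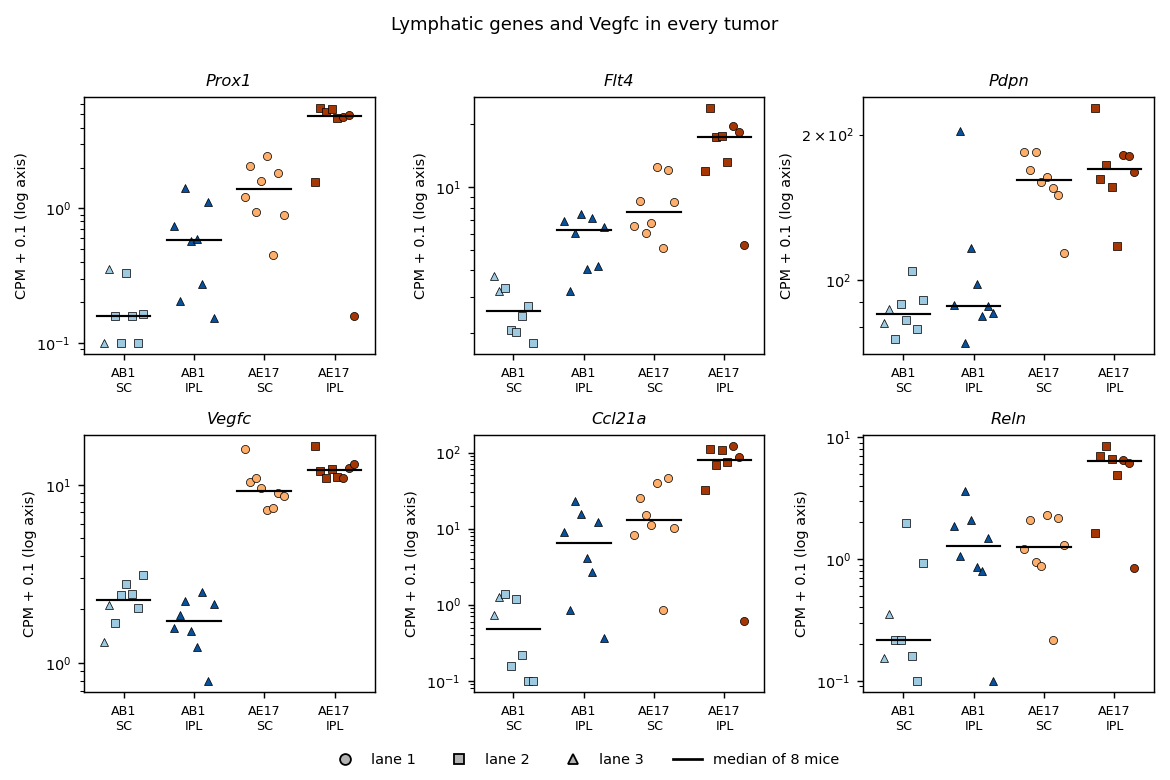
CPM plus 0.1, on log axes, of Prox1, Flt4, Pdpn, Vegfc, Ccl21a and Reln in each tumor, with a bar at the median of 8 mice and the symbol giving the lane. Prox1, Flt4, Ccl21a and Reln have higher IPL medians in both models, AE17 IPL replicate 8 is the lowest of its group for these 4, and Vegfc and Pdpn separate AB1 from AE17 at the SC site.

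The difference of the site effects between the models was tested as the interaction of model and site over all 32 mice. Of 32 members, 3 passed, against 20.5% of 15681 genes: Aplnr and Erg with a positive difference, against 11.9% of genes, and Flt1 with a negative one, against 8.62%. The difference (AB1 site effect minus AE17 site effect) was -0.74 ± 0.23 on the log2 scale for Flt1 (edgeR adjusted p = 0.0223), where AE17 values were 31.8, 42 and 88 CPM in SC and 40.1, 51.4 and 58.5 CPM in IPL tumors. For Aplnr it was 1.66 ± 0.34 (edgeR adjusted p = 0.00114), with AE17 values of 13.7, 28.2 and 47.9 CPM in SC and 15.7, 20.3 and 40.4 CPM in IPL tumors. Erg followed at 1.02 ± 0.32 (edgeR adjusted p = 0.0228).

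All 3 stayed past the threshold whichever mouse was left out, whereas with lane as a covariate edgeR called 0 of 32 members, 3 (Flt1, Aplnr and Gja5) with an unadjusted p under 0.05, against 0.746% of all genes called, and DESeq2 called 5 without it, against 19.1%. For Aplnr the difference with that covariate was 1.67, for Flt1 -0.75 and for Erg 0.99 (edgeR unadjusted p = 0.0568 for Erg). The share of all genes at an unadjusted p under 0.05 in that fit is not given here. The other 29 members did not pass, and most intervals are wide: for Cdh5 the difference was 0.17 with an interval from -0.17 to 0.50.

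AB1 and AE17 tumors were then compared at each site, as a description of vessel gene levels by model. They use the same 4 groups of mice as the site comparisons. In SC tumors 21 of 31 members passed, against 63.7% of 14718 genes, so that the share called was near that of all genes. Of the 31, 19 passed as lower in AB1, against 32.5% of all genes, and 2 as higher, against 31.2%. In IPL tumors 16 of 32 passed, against 59.1% of 14886 genes, with 13 lower in AB1, against 28.6%. The median log2 difference of the members was -0.53 in SC and -0.30 in IPL tumors, against -0.00 and 0.02 over all genes.

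Vegfc, the ligand of the Flt4 receptor, had the largest difference of the members tested at each site. It was at 1.21, 2.17 and 3.03 CPM in AB1 SC and 7.09, 9.19 and 15.7 CPM in AE17 SC tumors, and at 0.697, 1.62 and 2.39 and at 10.7, 12.1 and 16.3 CPM in the IPL tumors. The groups did not overlap at either site. In SC tumors 9 members lay wholly below and 2 wholly above, against 16.5% and 14.9% of genes, and in IPL tumors 2 and 1, against 15.4% and 13.1%. For Vegfc the log2 differences were -2.20 ± 0.19 and -2.89 ± 0.20 (edgeR adjusted p = 1.63e-08 and 1.43e-09). Angpt2 was lower in AB1 by 1.29 ± 0.14 in SC and 1.61 ± 0.20 in IPL tumors.

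The lymphatic members were lower in AB1 too. Flt4 differed by -1.68 ± 0.21 in SC and -1.48 ± 0.26 in IPL tumors, and Pdpn by -0.90 ± 0.09 and -0.68 ± 0.18. Pdpn was at 75.4, 84.9 and 104 CPM in SC and 74.1, 88.5 and 203 CPM in IPL tumors of AB1, and at 114, 161 and 184 CPM in SC and 118, 170 and 226 CPM in IPL tumors of AE17. Prox1 was lower in AB1 IPL than in AE17 IPL tumors by 2.84 ± 0.61 on the log2 scale and was removed by the filter in SC tumors, where all 8 AB1 values lay below the AE17 range.

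Blood vessel receptors were lower in AB1 SC tumors in 4 of 5 cases, against 32.5% of all genes. Kdr was lower by 0.86 ± 0.13, Tek by 0.59 ± 0.13, Tie1 by 0.57 ± 0.09 and Aplnr by 1.88 ± 0.24. In IPL tumors Kdr, Tie1 and Flt1 passed as lower, against 28.6% of all genes. Flt1 differed by -1.15 ± 0.12, with all 8 AB1 tumors below the AE17 range. The transcription factor Erg differed by -1.74 ± 0.25 and -0.70 ± 0.20. Among the surface genes Robo4 (-0.63 ± 0.08 and -0.56 ± 0.16) and Egfl7 (-0.75 ± 0.09 and -0.55 ± 0.16) were lower at both sites, whereas Pecam1, Eng, Plvap and Nos3 passed at neither.

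Higher in AB1 were Vegfb, a VEGF family ligand of Flt1, by 0.92 ± 0.09 and 0.97 ± 0.09, with no overlap of the groups at either site, and Notch4, by 0.33 ± 0.08 and 0.35 ± 0.14. In IPL tumors the Notch4 call (edgeR adjusted p = 0.0429) was kept without AB1 IPL replicate 2 or 5 or AE17 IPL replicate 1 or 3 and lost without any of the other 12 mice, with adjusted p of up to 0.0973. Apln, the apelin ligand of Aplnr, was higher in AB1 by 0.68 ± 0.22 in IPL tumors, and its log2 difference was 0.20 ± 0.26 in SC tumors. Vegfa was lower in AB1 IPL than in AE17 IPL tumors (-0.69 ± 0.23, edgeR adjusted p = 0.0164), with AE17 values of 73.9, 102 and 169 CPM in SC and 75.6, 110 and 153 CPM in IPL tumors.

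**Figure D4:**
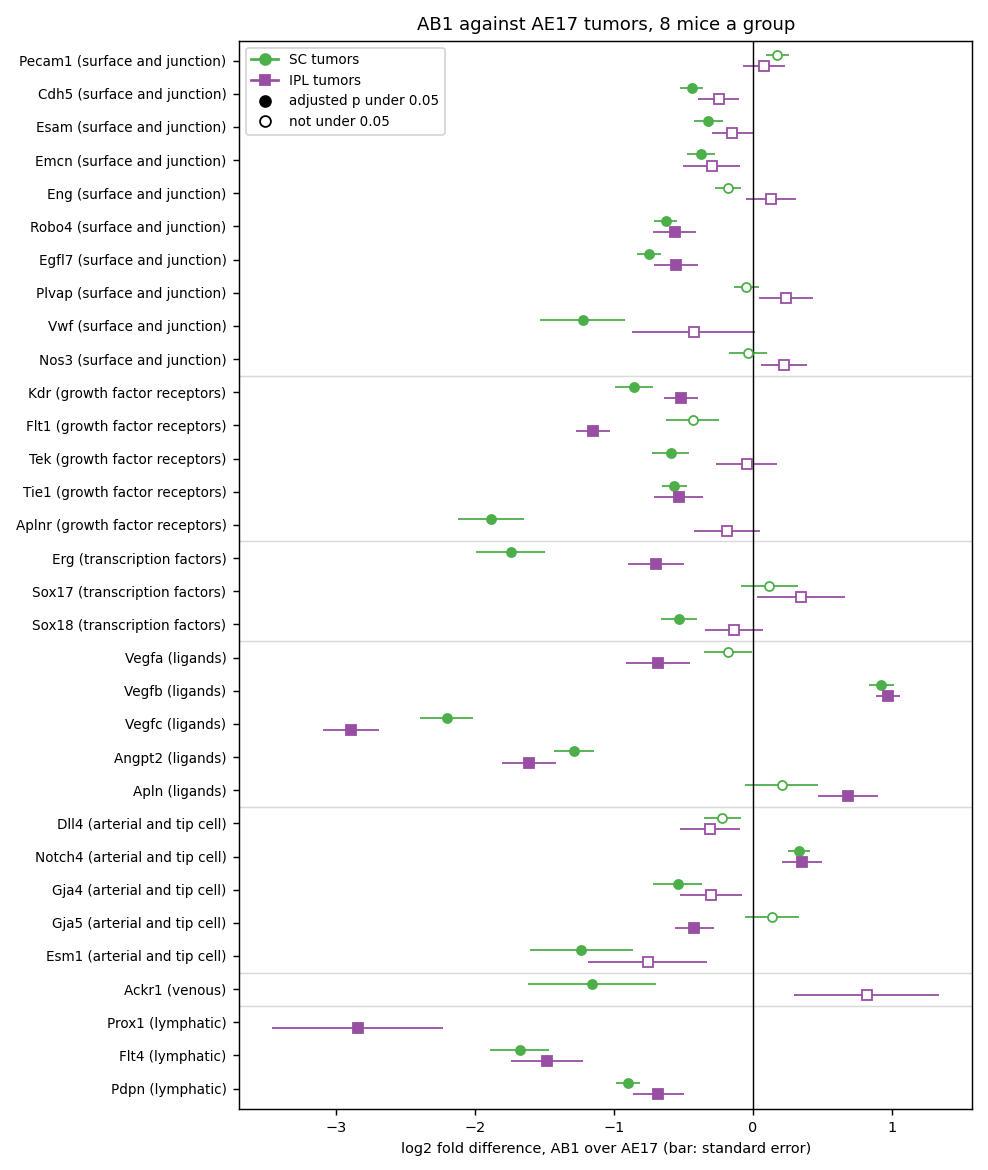
Log2 fold difference of each member, AB1 over AE17, in SC (circles) and IPL (squares) tumors, with bars of 1 standard error and filled symbols for an edgeR adjusted p under 0.05. In SC tumors 19 of 31 members pass as lower in AB1, against 32.5% of all genes. Vegfb and Notch4 are higher in AB1 at both sites.

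Pericyte and smooth muscle markers were also lower in AB1 SC tumors, with sums between 153 and 205 CPM against 287 and 658 CPM in AE17 SC tumors. The sums over 6 genes listed as lung capillary markers were higher, between 145 and 165 CPM against 56.7 and 130 CPM. Among them, Sema3c had medians of 66.9 and 29.8 CPM and Foxf1 of 46 and 19.3 CPM. The list also holds Lyve1, one of the other lymphatic genes, and in these SC tumors the sum is not taken as a measure of lung tissue. The part of these marker sums in the vessel gene differences was not tested.

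To see which members follow the amount of endothelial RNA in a tumor, each was set against Cdh5 across the 32 mice, after removal of the group means from log2 CPM. Of 31 members, 9 had a positive correlation that passed a permutation test within groups with adjustment over 15680 genes, against 0.338% of those genes: Tie1 (r = 0.90), Robo4 (0.86), Egfl7 (0.81), Esam (0.79), Nos3 (0.79), Sox18 (0.78), Plvap (0.74), Pecam1 (0.72) and Aplnr (0.69). No member was called in the negative direction, against 0.223% of genes. The median r of the members was 0.37, against -0.01 over all genes.

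Spearman's rho was highest for Tie1, Robo4 and Nos3, at 0.87, 0.87 and 0.81, each with a permutation p of 1e-05, the smallest that 100000 permutations can give. Without the 2 mice farthest from the median of Cdh5, AB1 IPL replicates 5 and 7, r was 0.84, 0.84 and 0.82, and 4 members passed in the positive direction, against 0.147% of all genes, the fourth being Esam (0.71). Egfl7 and Sox18, at 0.66 and 0.63, no longer passed (permutation test adjusted p = 0.0725 and 0.0808), nor did Plvap, Pecam1 and Aplnr. With lane means removed as well, r was 0.90 for Tie1 and 6 members passed in the positive direction, against 0.102% of all genes. In the 16 AB1 and the 16 AE17 mice alone the permutation test called 0 members after adjustment. It also called 0 of 15669 and 0 of 15676 genes, so that these counts say nothing about the members. At an unadjusted permutation p under 0.05 were 12 and 17 of 31 members, and the share of all genes at that threshold is not given here. Tie1 had r of 0.92 and 0.87.

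Other members had lower correlations. Over all 32 mice, for the 5 ligands r lay between -0.22 and 0.30, for the 3 lymphatic genes between -0.13 (Prox1) and 0.36 (Flt4), and for Flt1 it was -0.16. Kdr, Erg and Sox17 lay between, at 0.52, 0.50 and 0.53, and Vwf was at 0.12. In the 16 AE17 mice alone r was -0.70 for Pdpn, -0.69 for Angpt2 and -0.56 for Vegfc (unadjusted permutation p = 0.00321, 0.00406 and 0.0131), against 0.21, 0.15 and 0.25 in the 16 AB1 mice. In the AB1 mice alone r was 0.60 for Flt4 and 0.58 for Vegfb (unadjusted permutation p = 0.0229 and 0.0276), against 0.17 and -0.14 in AE17. For Prox1 r was -0.40 in the AB1 mice alone (unadjusted permutation p = 0.208) and 0.11 in the AE17 mice alone. Without the 2 mice farthest from the median of Cdh5, r was -0.59 for Vegfc and -0.48 for Angpt2 (unadjusted permutation p = 0.00046 and 0.0155). None of these passed after adjustment, and the difference between the models was not tested. Points share a library and the scaling of their counts, so that r describes these tumors and is not a measure of shared control.

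**Figure D5:**
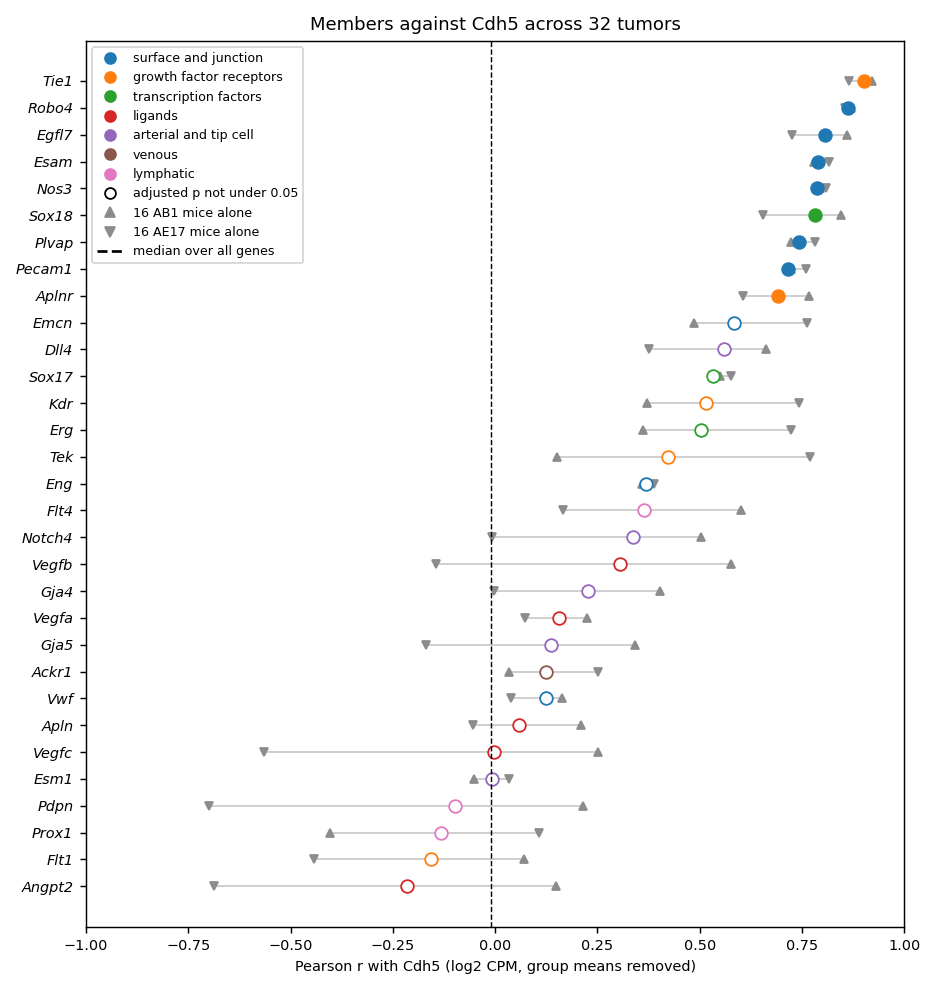
Pearson r of 31 members with Cdh5 over 32 tumors (log2 CPM, group means removed), colored by role and filled where the adjusted permutation p is under 0.05, with the 16 AB1 (up triangles) and 16 AE17 (down triangles) mice alone and a dashed line at the median of all genes. The 9 filled points are surface, receptor and transcription factor members, from Tie1 to Aplnr. Pdpn, Angpt2 and Vegfc have r between -0.70 and -0.56 in the AE17 mice alone and between 0.15 and 0.25 in the AB1 mice alone.

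A second list held 53 other vascular and lymphatic genes, of which 46 had a row. In AB1, 13 of the 44 tested were higher and 8 lower in IPL tumors, against 12.3% and 10.7% of all genes, and in AE17 5 of 45 were higher and 3 lower, against 2.6% and 3.13%. By sublist in AB1 IPL tumors, 6 rose and 2 fell of 15 endothelial surface genes tested, 3 and 0 of 6 Notch and ephrin genes, and 2 and 1 of 7 VEGF coreceptors, TGF-beta receptors and inhibitors. Of 12 transcription factors tested, Elk3 rose and 5 fell (Ets1, Fli1, Klf4, Nr2f2 and Hhex). The difference between sublists was not tested.

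Tmem100, an endothelial membrane protein induced by BMP signaling, was at 0.603, 0.912 and 1.22 CPM in AB1 SC and 2.06, 5.45 and 7.38 CPM in AB1 IPL tumors, with no overlap (2.36 ± 0.27, edgeR adjusted p = 2.07e-05). Ephb4, the venous ephrin receptor, also had no overlap, with log2 change 0.69 ± 0.10 (edgeR adjusted p = 0.000185), and Heyl, a Notch target, rose by 1.61 ± 0.32 (0.00162). Ramp2, the adrenomedullin receptor partner, rose by 0.87 ± 0.15 (edgeR adjusted p = 0.000586). Vcam1, a leukocyte adhesion molecule of activated endothelium and stroma, fell by 1.09 ± 0.14 (4.7e-05), with every IPL tumor below every SC tumor, and it was still called within lane 3 (-1.03, edgeR adjusted p = 0.027).

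Hhex, Fli1 and Ets1 fell by 0.68 ± 0.15, 0.49 ± 0.12 and 0.25 ± 0.06 on the log2 scale in AB1, with 7 of 8 IPL tumors below the SC range each. Leukocytes express Fli1 and Ets1 too, and the leukocyte marker sums given above were lower in AB1 IPL tumors. Their part in the Fli1 and Ets1 results was not tested. Nrp2, a coreceptor for VEGF-C, fell by 0.34 ± 0.10 in AB1 (edgeR adjusted p = 0.0179). In AE17 Vegfd, a ligand of Flt4, fell by 0.50 ± 0.13 (edgeR adjusted p = 0.0384), and Efnb2 and Vash1, the ligand of Ephb4 and an angiogenesis inhibitor, rose in AB1 by 0.28 ± 0.09 and 0.50 ± 0.17 (0.0349 and 0.0459). With 1 mouse left out, the calls of Vegfd and Efnb2 held in 8 of 16 fits each and that of Vash1 in 4.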

How the data were processed

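Per the labels and the study's methods, whole-tumor polyA RNA of 32 mice was sequenced as 50 bp single-end reads. The authors demultiplexed with bcl2fastq 1.8.4, aligned with HISAT2 2.0.4 and deposited raw counts per gene. The genome is called mm11 there, and 39495 of 39676 gene identifiers matched GENCODE M21 (GRCm38), which gave positions and exon lengths.

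The members and lists were chosen with earlier results of these data known. Members without a row are not analysed here. Counts were tested with edgeR 4.0.16 (TMM scaling, filterByExpr, quasi-likelihood test, Benjamini-Hochberg adjustment over all genes) in R 4.3.3, within each pair of groups, and over all 32 mice for the interaction. Values by mouse are given for members past the threshold in a site comparison or the interaction, for Pecam1, Cdh5, Kdr, Vegfa, Prox1, Flt4 and Pdpn, and, of the other vascular genes, for up to 3 per list with the smallest adjusted p in a site comparison. Further members, and lymphatic values of single mice, were named after their values were seen. Correlations used log2 CPM (prior count 2), 100000 permutations within groups and adjustment over all genes, where adjustment over the members had been planned. On simulated counts for the AB1 site comparison edgeR recovered 82% and 94% of genes changed by 1 and 2 log2 units, over 14645 genes, and for the interaction 59% and 86%, over 15681 genes. Alternatives were DESeq2 1.42.0, other scalings and filters, lane, and each mouse left out. Marker lists were summed in CPM. Figures were drawn with matplotlib 3.10.9.

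Totals of 15432258 to 20649645 counts put the detection limit of 3 counts at 0.139 to 0.19 CPM, for counting error only. The labels name 8 mice per group, and 112 pairs of libraries within groups differed by more than sampling noise.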

Additional observations from a re-analysis of the deposited data

Results flagged for a closer look

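In 13 of 128 sets of 8 mice (10.2%), the highest or lowest tumor stood apart by Dixon's test on log2 CPM. Gaps are shares of the range on that log2 scale, while the levels beside them are in CPM. By chance about 1 in 20 sets would be picked. On the log2 scale the gap was 0.642 of the range for Prox1 and 0.539 for Flt4 in AE17 IPL replicate 8. That tumor was the lowest in both, at 0.0569 and 5.18 CPM against 1.48 and 11.8 CPM in the next. In AE17 IPL replicate 5 the log2 gap was 0.535 for Plvap, the highest at 56.7 CPM, and 0.607 for Angpt2, the lowest at 16.7 CPM. In AE17 IPL replicate 1 it was 0.583 for Vwf, the lowest at 5.40 CPM, and 0.560 for Vegfc, the highest at 16.3 CPM.

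Among AE17 SC tumors the log2 gap was 0.551 for Flt1 in replicate 1, the highest at 88 CPM against 50.2 CPM in the next. It was 0.583 for Esam in replicate 2, the lowest at 11 CPM, and 0.575 for Pdpn in replicate 8, the lowest at 114 CPM. Among AB1 tumors the log2 gap was 0.55 for Pdpn in IPL replicate 2, the highest at 203 CPM against 117 CPM. That tumor also held 66.2 CPM of mesothelial markers, against at most 3.02 CPM in the other AB1 IPL tumors, and their part in the Pdpn value was not tested. In AB1 SC tumors the log2 gap was 0.533 for Egfl7 in replicate 6 (lowest), 0.595 for Vegfb in replicate 3 (highest) and 0.607 for Esm1 in replicate 2 (lowest).

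The effect of site differed between the models, by the interaction test of edgeR, for Flt1 (-0.74 on the log2 scale, AB1 effect minus AE17 effect), Aplnr (1.66) and Erg (1.02).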

How the results depend on the processing

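No result reversed. In AB1, where 9 members were called between the sites, the count was 14 with all 32 mice in 1 fit (27.4% of all genes, against 23%), 0 with lane as a covariate, 0 within lane 3 and 3 without the 4 mice rich in muscle RNA, an alternative chosen after the data were seen. Leaving out each mouse gave 5 to 13, against 19.4% to 24.7% of all genes. In AE17, where 3 were called, it was 6 by DESeq2, 1 with no filter on low counts (1.93% of all genes, against 5.73%), 0 with lane as a covariate and 0 within lane 1. With each mouse left out it was 1 to 7, against 2.14% to 14% of all genes. The interaction gave 3, against 20.5% of all genes, 5 by DESeq2 (19.1%) and 0 with lane as a covariate (0.746%). With each mouse left out it gave 3 to 6 of 32, against 17.2% to 23.2% of all genes. The count was 5 without AB1 IPL replicate 6 or AE17 IPL replicate 5, and 6 without AB1 IPL replicate 8. Between the models the counts were 21 in SC and 16 in IPL tumors, against 63.7% and 59.1% of all genes. With each mouse left out they were 20 to 23 and 15 to 17, against 61.2% to 64.9% and 56% to 61.3% of all genes. Of the correlations with Cdh5, 9 were called, 4 without the 2 farthest mice and 0 in AB1 or in AE17 alone, where no gene was called at all. The cause of these shifts was not tested, except that single lanes and single models hold fewer mice. For single members, DESeq2 took 7 results past the threshold and 1 below it. Mice share only a replicate number: residuals of same-numbered mice correlated between -0.29 and -0.00 in AB1 and between -0.23 and 0.27 in AE17, where 3 of 8 pairs matched best. With the replicate block 5 members were called in AB1, 3 higher and 2 lower against 8 and 1 without it (15.5% of all genes), and 1, higher, in AE17 (4.51%). Prox1 was near the detection limit in AB1, so a site difference there is limited by depth.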

Other observations

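Markers of other cell types were summed per tumor, and the values are medians of 8 mice in CPM, given for AB1 SC, then AB1 IPL, then AE17 SC, then AE17 IPL tumors. Lung epithelium, led by Ager, was at 1.54, 2.03, 4.34 and 5.36, and lung capillary endothelium, led by Sema3c, at 159, 186, 79.1 and 59.8. Skeletal muscle, led by Acta1, was at 262, 1823, 508 and 434, and cardiac muscle, led by Tnni3 in SC and Myl4 in IPL tumors, at 6.94, 32.9, 6.69 and 15.6. Adipocyte markers, led by Adipoq except in AB1 SC tumors (Cidec), were at 3.70, 10.8, 5.15 and 1.05. Keratinocyte markers, led by Krt10, were at 1.18, 1.43, 3.16 and 2.72, and mesothelial markers, led by Wt1, at 0.997, 0.941, 0.15 and 5.84.

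Pericyte and smooth muscle markers, led by Pdgfrb, were at 167, 233, 409 and 251, and platelet markers, led by Pf4, at 29.5, 26.6, 58.2 and 47.9. Red cell markers, led by globin genes whose near-identical copies share reads, were at 43.7, 502, 73.6 and 205, and leukocyte markers, led by Csf1r, at 897, 632, 821 and 799. These sums mix gene lengths and describe the tumors only.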
